A study of Mus musculus with 39 samples.

Results

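Several kinds of gene product made by the growing mouse oocyte were followed across all samples: the proteins of the zona pellucida (Zp1, Zp2 and Zp3), the growth factors and other proteins that the oocyte secretes (Gdf9, Bmp15, Oosp1 and Astl), and Figla, a transcription factor of the zona genes. These 8 genes were chosen by symbol, not by a cut on measured level, out of 18883 named genes on the array. Earlier results of these data were known when they were chosen. They were read by 11 of 41174 probes, with Zp2, Zp3 and Oosp1 on a pair of probes each and the other 5 genes on 1 probe, and all 11 probes passed the filter on low intensity that left 39518 probes in the tests.

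All samples came from (B6xDBA/2)F1 mice and were hybridised to 39 single-colour microarrays. The groups were unfertilized metaphase II oocytes (OC, n = 7), 2-cell embryos from in vitro fertilization (IVF, n = 6), 2-cell embryos cloned by transfer of a cumulus cell nucleus without (TSA(-), n = 8) or with (TSA(+), n = 6) trichostatin A, an inhibitor of histone deacetylases, clones injected with mRNA of the ETS-family transcription factor Spi-C at 1.0 mg/ml (Spi-C 1.0, n = 4) or 0.1 mg/ml (Spi-C 0.1, n = 4), and the donor cumulus cells (Cumulus, n = 4). Oocytes and cumulus cells were taken 15 h after hCG, all embryos were cultured for 24 h, TSA was present at 5 nM for the first 8 h from activation, and Spi-C mRNA entered at the pronuclear stage. Each array held RNA of 10 pooled oocytes or embryos, or of 500 cumulus cells, after linear amplification. None of the groups was a clone injected without Spi-C mRNA, so injection and Spi-C cannot be told apart. The labels do not tie the pools to separate animals or culture days, so p-values measured the spread between these samples, which may be partly technical.

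The zona pellucida is the glycoprotein coat that the growing oocyte lays down around itself and that sperm must bind and cross. GDF9 and BMP15 are TGF-beta family ligands that the oocyte secretes to the granulosa and cumulus cells around it, where they act through type I and type II receptors and SMAD proteins. These products are made during oocyte growth, and the fully grown, meiotically mature egg and the early embryo carry the stored mRNA, much of which is degraded as the embryonic genome becomes active around the 2-cell stage.

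Levels are given as log2 intensity relative to the 75th percentile of the same array, so a level of 0 lies at that percentile, and a difference of 1 between groups is a 2-fold difference. Levels can be set against each other for 1 probe between samples, not between probes. Where the ranges of 2 groups are said to lie apart, the share of all probes with ranges apart was not computed. The 75th percentile itself was at an intensity of 279 to 527 on the OC arrays, 1029 to 1610 on the IVF, TSA(-) and TSA(+) arrays, 2140 to 2707 on the Spi-C arrays and 814 to 1125 on the Cumulus arrays, and 49.1% to 77.9% of probes were well above background. The oocyte, IVF and TSA arrays shared 9 slides, the Spi-C arrays lay on 2 slides of their own and the Cumulus arrays on 1, both read on another scanner model, so for any comparison across these 3 sets slide and group cannot be told apart. The summed linear level of 8 oocyte markers, Gdf9 among them, was 2772 to 4784 in OC, 421 to 527 in IVF and 2.57 to 4.49 in Cumulus, where 3 of the 8 were well above background on every array and 3 on none. The summed level of 11 cumulus markers was 298 to 340 in Cumulus and 0.985 to 3.52 in OC, and the labels of oocytes and cumulus cells therefore fitted these markers.

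Of the 8 genes, RefSeq promoter windows (GRCm38.p6, the 250 bases before the annotated start) starting outside the gene's own annotated span were on hand for Bmp15, Oosp1, Zp3 and 1 of the starts of Astl. FIGLA, itself one of the 8 genes, is known to act on zona genes as a partner of E proteins at E-boxes. Of these windows the first 3 are shown, the ones that held E-box letters. Each is written 5′ to 3′ on the gene's strand, with the E-box letters CANNTG, which read the same on both strands, in capitals.
Zp3, chr5:135979855-135980104, plus strand: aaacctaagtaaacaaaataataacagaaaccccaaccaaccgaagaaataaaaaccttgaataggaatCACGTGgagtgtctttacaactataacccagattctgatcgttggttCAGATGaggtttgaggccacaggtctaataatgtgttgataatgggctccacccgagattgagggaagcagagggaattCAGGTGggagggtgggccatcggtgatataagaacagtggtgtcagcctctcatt
Oosp1, chr19:11691052-11691301, minus strand: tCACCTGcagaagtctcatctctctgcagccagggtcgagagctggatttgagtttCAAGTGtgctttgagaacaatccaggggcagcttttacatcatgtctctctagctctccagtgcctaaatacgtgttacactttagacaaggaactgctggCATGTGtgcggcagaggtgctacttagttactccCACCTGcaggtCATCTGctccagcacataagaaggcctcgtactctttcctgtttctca
Bmp15, chrX:6320725-6320974, minus strand: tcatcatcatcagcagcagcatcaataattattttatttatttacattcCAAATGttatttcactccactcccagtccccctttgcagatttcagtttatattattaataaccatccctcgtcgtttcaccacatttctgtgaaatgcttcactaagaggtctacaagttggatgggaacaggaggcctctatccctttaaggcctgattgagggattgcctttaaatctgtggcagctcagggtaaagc
These letters occurred 3 times before Zp3, beginning at bases -181, -134 and -55 from the start, 5 times before Oosp1 and 1 time before Bmp15, at base -201. They did not occur in the outer window of Astl. In windows that start inside the gene's own span, not shown, they occurred 3 times before another start of Astl and 2 times before Figla. E-box letters stood in 66.2% of 32851 promoter windows of this length, so a match is a common feature and marks no site. TAATTG, 1 form of the NOBOX element, was in none of these windows on either strand, against 7.17% of all windows. Other forms of that element were not searched, so their absence is not shown. Zp1, Zp2 and Gdf9 are not shown.

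Every one of the 8 genes had its highest mean level in oocytes and its lowest in cumulus cells, with the 5 embryo groups in between. The Zp1 level in OC ran from -0.78 through a median of -0.10 to 0.56, and no embryo array reached that range. Zp2 in OC ran from 3.02 through 3.25 to 3.57, and Zp3 from 4.04 through 4.41 to 4.79. For these zona genes the order below OC differed. Zp2 went from OC to IVF to TSA(-) with no overlap of the ranges, and the ranges of TSA(-), Spi-C 1.0, Spi-C 0.1 and TSA(+) overlapped from each neighbour to the next. Zp1 and Zp3 had Spi-C 1.0 next to OC and overlapping neighbours from there down to the lowest embryo group, which was TSA(+) for Zp1 and TSA(-) for Zp3.

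Of the secreted factors, Oosp1, Gdf9 and Bmp15 were among the brightest probes of the oocyte arrays, and Astl was not. Oosp1, which encodes an oocyte-secreted protein, ranked 1 or 2 by intensity on every OC array and 3 to 21 on the embryo arrays. Gdf9 ranked 11 to 25 on OC arrays and 56 to 173 on embryo arrays, and Bmp15 ranked 61 to 97 on OC arrays and 18 to 86 on embryo arrays. In OC their raw intensities were 60.6% to 76.9% (Gdf9), 37.4% to 59.3% (Bmp15) and 82.2% to 100% (Oosp1) of the brightest spot on the array, and no spot was marked as saturated. Figla was dim by comparison with its own array, at -2.87 through -1.40 to -0.60 in OC, yet well above background on all 35 arrays of oocytes and embryos. Its neighbouring groups overlapped at every step from OC to Spi-C 0.1. Astl, which encodes ovastacin, the cortical granule protease that cuts ZP2 after fertilization, ran from 0.19 through 2.06 to 2.57 in OC.

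**Figure D1:**
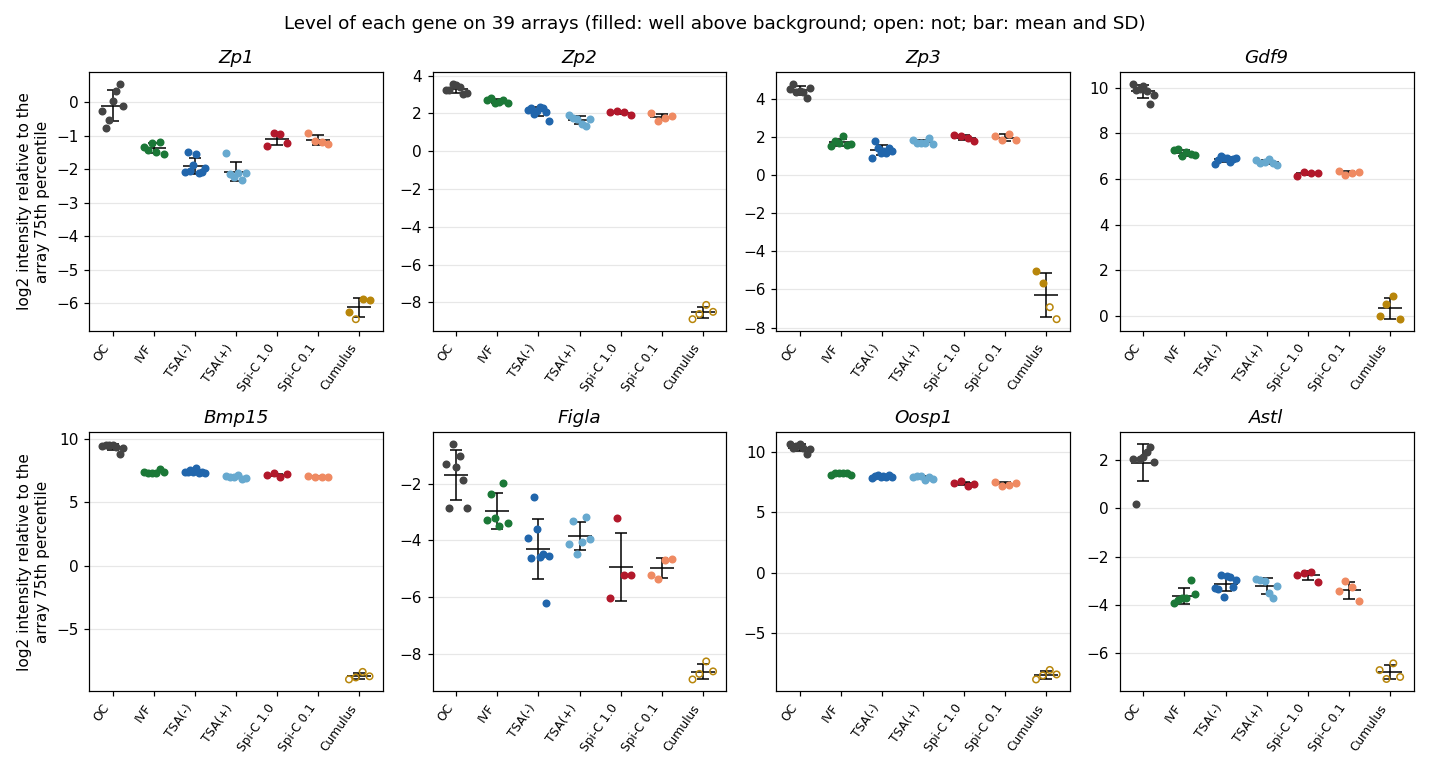
Level of the main probe of each gene on each of 39 arrays (log2 intensity relative to the 75th percentile of the array, a separate vertical scale per gene), by group, with filled points well above background, open points not, and bars for the mean and SD. The OC points lie above all embryo points for every gene except Figla, and the Cumulus points lie below all others.

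Fertilized 2-cell embryos were compared with unfertilized oocytes to follow the level of messages that the oocyte stores. In IVF, 7 of the 8 genes were called lower than in OC at an adjusted p under 0.01 (limma, Benjamini-Hochberg over all probes), in a comparison in which 43.2% of all tested probes were called lower and 23.8% higher, and the median of all probes was itself -0.87. That median was -0.29 under quantile normalization, -1.55 when arrays were centred on their medians and -1.27 after normexp background correction, and the share of called probes that were lower was 64.4% against 56.5%, 75.3% and 81.3%. The median difference of the 8 genes was -2.07. Fewer copies of a message per cell and a different total of RNA per pool cannot be told apart on these arrays, since each array was scaled to itself.

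Astl stood far below the others. Its level was -3.91 through -3.73 to -2.97 in IVF against 0.19 to 2.57 in OC, ranges more than 3 log2 units apart, and the difference was -5.52 (SE 0.25, 45.7-fold, adjusted p = 1.38e-20). OC replicate 2, at 0.19, was lower than the other 6 oocyte pools, and without it the Astl difference was -5.80. Relative to the median probe, Astl was at -4.64.

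Among the zona genes, Zp3, a structural zona protein, went from 4.43 ± 0.23 (SD, n = 7) in OC to 1.71 ± 0.18 (SD, n = 6) in IVF. The difference was -2.72 (SE 0.23, 6.60-fold, adjusted p = 4.4e-13) and its second probe gave -2.77. Zp1, which crosslinks the zona filaments, differed by -1.26 (SE 0.17, adjusted p = 4.5e-08), from -0.10 ± 0.47 to -1.36 ± 0.14. Zp2, the zona protein that sperm bind and that ASTL cleaves, differed least, by -0.64 (SE 0.13, 1.55-fold, adjusted p = 5.65e-05), from 3.29 ± 0.21 to 2.65 ± 0.10. That was a smaller fall than the median probe showed, 0.24 above it. The second Zp2 probe did not pass the test (-0.31, SE 0.38, adjusted p = 0.463), and the OC and IVF ranges, 2.11 to 2.63 and 1.96 to 2.16, overlapped on it. The error of that probe included a wide spread in Cumulus (SD 2.24, against 0.18 in OC and 0.08 in IVF), since all groups shared 1 fit. Zp2 was also higher, not lower, in IVF under quantile normalization (0.44, called), and its raw intensity was 2625 to 4329 on OC arrays and 6072 to 9194 on IVF arrays. The 3 zona messages thus covered differences from 1.55-fold to 6.60-fold in the same pools.

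The 3 bright secreted factors were all lower in IVF. Gdf9 went from 9.84 ± 0.29 to 7.15 ± 0.12 (difference -2.70, SE 0.13, adjusted p = 1.7e-19), Bmp15 from 9.37 ± 0.25 to 7.40 ± 0.11 (-1.97, SE 0.11, adjusted p = 1.04e-17) and Oosp1 from 10.35 ± 0.27 to 8.18 ± 0.08 (-2.17, SE 0.12, adjusted p = 6.1e-18). None of their OC and IVF ranges overlapped. The direction for Bmp15 and the call for Oosp1 depended on the scaling. Under quantile normalization Bmp15 was at 0.21 and Oosp1 at -0.19, neither called, while Gdf9 stayed lower at -0.69 and was called. The annotated span of Gdf9 (GRCm38.p6, chr11:53430774-53437904) overlaps Uqcrq by 58 bases, and a share of signal from Uqcrq was not tested. Figla differed by -1.25 (SE 0.44, adjusted p = 0.0108), just outside the threshold, and the ranges overlapped. Without OC replicate 2 or 7, or without IVF replicate 2 or 5, Figla was called, at -1.37 to -1.44.

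All 8 genes were lower in IVF than in OC on both slides that held the 2 groups, with 2 IVF and 3 OC arrays, and on these slides alone Gdf9 (-2.49) and Astl (-6.08) passed the test.

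**Figure D2:**
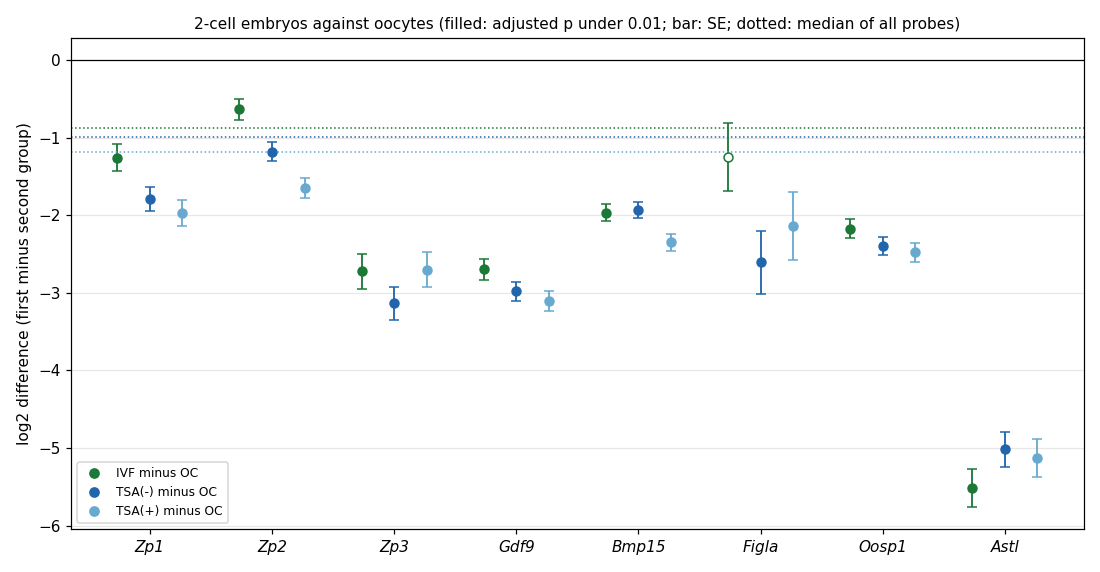
Log2 difference of each gene between 2-cell embryos and oocytes (IVF, TSA(-) and TSA(+), each minus OC; points filled where the adjusted p was under 0.01, bars for the SE, dotted lines for the median of all probes). All 24 differences are below 0, from -0.64 for Zp2 to -5.52 for Astl, though under quantile normalization Bmp15 was above 0 in all 3 groups and Zp2 in IVF.

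**Figure D3:**
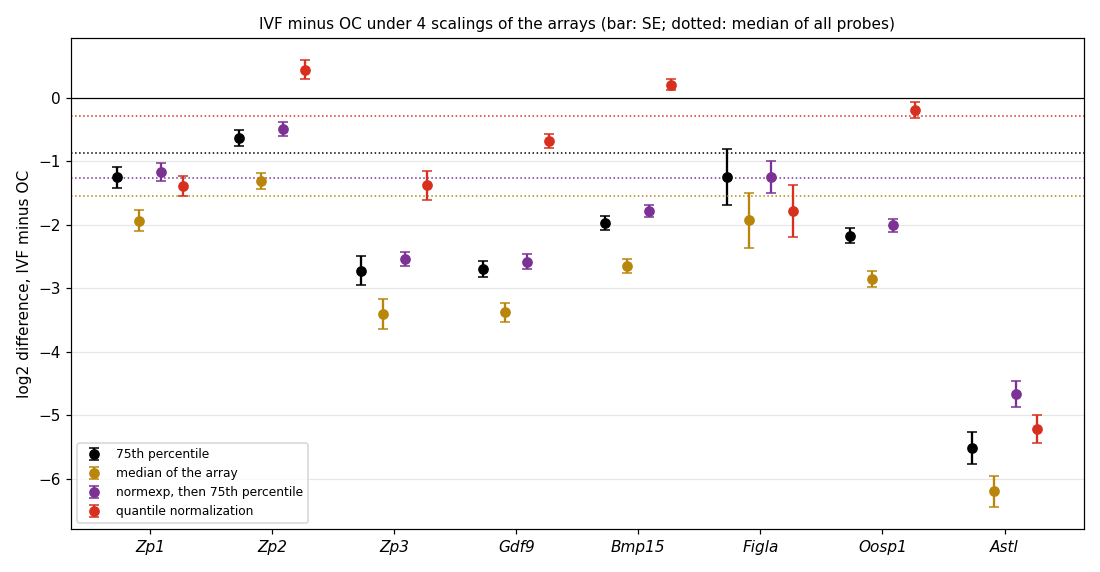
Log2 difference IVF minus OC of each gene under 4 scalings of the arrays (bars for the SE, dotted lines for the median of all probes under the scaling of the same colour). Astl, Zp3, Gdf9, Oosp1, Zp1 and Figla are below 0 under all 4, while Zp2 and Bmp15 are above 0 under quantile normalization only, at 0.44 and 0.21.

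Genes around these 8 in their known pathways were described by lists chosen for their roles. Of 8 measured regulators of oocyte genes, 2 were higher in IVF and 6 lower, with a median difference of -1.07. Those lower included Sohlh2 (-4.83), a germ cell bHLH factor, and Tcf3 (-1.99) and Tcf12 (-1.86), genes of E proteins, the class that FIGLA pairs with, and the 2 higher were Foxo3 (1.98) and Taf4b (1.93, well above background on 3 of 7 OC arrays). Of 14 genes of GDF9 and BMP15 signalling, 3 were higher and 9 lower, with a median that also lay below that of all probes. Furin (-8.63), a proprotein convertase, Smad5 (-6.74) and the type I receptor Bmpr1b (-5.62) were lower, whereas the inhibitory Smad7 (7.58, well above background on 2 of 7 OC arrays) and the type II receptor Bmpr2 (1.82) were higher. Of 8 measured egg surface and fertilization genes none was higher and 7 were lower (median -2.19), among them Izumo1r (-4.85), the egg receptor for sperm IZUMO1, and the tetraspanin gene Cd81 (-4.86). The medians of these 3 lists were all below that of all probes (-0.87), in a comparison in which most probes were called.

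Cloned embryos began from the same kind of oocyte, and the 8 genes were also lower in them. In TSA(-), 8 of 8 were called lower than in OC, where 47.1% of all probes were, with a median of -2.50 against -0.99 for all probes. In TSA(+), 8 of 8 were called lower, where 49.4% of all probes were, with a median of -2.41 against -1.19. Of all probes called, 66.3% and 68.7% were lower in these 2 comparisons, and 57.2% to 81.8% and 57.4% to 82.2% under the other scalings. These comparisons share the OC arrays with that of IVF. For Astl, the difference from OC was -5.52 in IVF, -5.02 in TSA(-) and -5.13 in TSA(+). For Zp3 it was -2.72, -3.14 and -2.70, for Gdf9 -2.70, -2.98 and -3.10, and for Oosp1 -2.17, -2.40 and -2.48. Zp2 was at -0.64, -1.18 and -1.65, and Zp1 at -1.26, -1.79 and -1.97, so both zona genes were lowest in TSA(+). Figla differed by -2.60 (adjusted p = 6.27e-07) in TSA(-) and by -2.14 (adjusted p = 4.53e-05) in TSA(+). Bmp15 was at -1.93 in TSA(-) and -2.35 in TSA(+) but at 0.42 (called) and 0.09 under quantile normalization, under which Oosp1 (-0.27 and -0.23) and, in TSA(-), Zp2 (-0.06) were not called. On 4 of 4 slides that held both groups, all 8 genes were lower in TSA(-) than in OC.

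Clones were next compared with fertilized embryos, both cultured for 24 h. Whether the 2 kinds of embryo were at the same point of the cell cycle was not tested. Only Zp2 was called between TSA(-) and IVF, and it was lower in clones, in a comparison that called 11.2% of all probes lower. Zp2 was at 1.60 through 2.16 to 2.36 in TSA(-) and at 2.56 through 2.64 to 2.80 in IVF. These ranges did not overlap, and the difference was -0.55 (SE 0.13, 1.46-fold, adjusted p = 0.00105). The second Zp2 probe gave -0.80 (SE 0.37, adjusted p = 0.106), with 0.78 to 1.49 in TSA(-) and 1.96 to 2.16 in IVF and so no overlap. Its error included a wide spread in Cumulus, where it was well above background on 1 of 4 arrays (SD 2.24). Zp2 was lower in TSA(-) on all 3 slides that held both groups, though with these 4 and 3 arrays alone it was not called. Nor was it called with the replicate number as a block (-0.45), although these numbers did not pair the arrays.

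The other 7 genes gave smaller or less certain differences between TSA(-) and IVF. Zp1 was at -0.53 (SE 0.17, adjusted p = 0.0127) and Figla at -1.36 (SE 0.42, adjusted p = 0.0136), both with overlapping ranges. Zp1 was called without TSA(-) replicate 2 (-0.59) or 5 (-0.58), and Figla without TSA(-) replicate 3 (-1.62). Gdf9 (-0.28), Oosp1 (-0.22) and Zp3 (-0.41) leaned the same way, and Bmp15 was at 0.04. Astl leaned the other way, at 0.50 (SE 0.24, adjusted p = 0.121), and was also higher in TSA(-) on all 3 shared slides (0.55 to 0.90).

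In TSA(+), Zp1 and Zp2 were called lower than in IVF, where 12.1% of all probes were called lower and the median of all probes was -0.21. Of the probes called there, 57.3% were lower, against 40.7% when arrays were centred on their medians. Zp2 was at 1.33 through 1.70 to 1.91 in TSA(+), wholly below IVF, and the difference was -1.01 (SE 0.14, 2.02-fold, adjusted p = 3.93e-07). Its second probe gave -1.35 (adjusted p = 0.0087). Zp1 was at -2.32 through -2.14 to -1.51 against -1.54 through -1.37 to -1.18 in IVF, a difference of -0.71 (SE 0.18, adjusted p = 0.00191). Only TSA(+) replicate 1 (-1.51) entered the IVF range, and without it the difference was -0.83. Zp1 was not called when arrays were centred on their medians (-0.52). Bmp15 (-0.38, adjusted p = 0.0107), Gdf9 (-0.41, adjusted p = 0.0218) and Oosp1 (-0.30, adjusted p = 0.0619) did not pass the test. Their ranges lay apart from those of IVF, and each was lower on 3 of 3 shared slides. How many of all probes had ranges apart was not computed, so this describes the arrays only. Relative to the median probe these 3 were at -0.16, -0.19 and -0.09.

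Of 8 measured regulators of oocyte genes, 3 were called lower than in IVF in both TSA(-) and TSA(+), against 11.2% and 12.1% of all probes, with list medians of -0.12 and -0.26 against -0.04 and -0.21 for all probes. They were Nobox (-1.24 and -1.45), Foxo3 (-1.04 and -1.19) and Lhx8 (-0.97 and -0.96), and none was called higher, where 9.49% and 8.99% of all probes were. Of the 14 signalling genes, Smad5 was higher (3.12 and 3.23), and Pcsk6 (-0.69 and -0.71) and Smad4 (-0.45 and -0.54) were lower. No egg surface gene was called in TSA(-), and 1 of 8, Fetub, an inhibitor of ovastacin, was lower in TSA(+) (-1.31). Of the 8 oocyte markers, 3 were also lower in both, Ooep (-1.29 and -1.61), Zar1 (-1.28 and -1.59) and H1f8 (-1.02 and -1.08), and their part in the result for Zp2 was not tested.

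TSA was compared with no TSA to ask what the inhibitor changed in clones. None of the 8 genes was called between TSA(+) and TSA(-) by limma, where 0.288% of all probes were called in either direction (66.7% of them lower, but 54.4% under quantile normalization, 26.6% after centring on medians and 48.4% after normexp). Before adjustment limma put 2 of them, Zp2 and Bmp15, under 0.05, as it did 17.6% of all probes, and the post hoc test of the study's methods (Tukey's HSD) called both, and 1.98% of all probes. Bmp15 was the nearest, at 6.88 through 7.03 to 7.14 in TSA(+) and 7.34 through 7.40 to 7.68 in TSA(-), ranges that did not overlap, with a difference of -0.42 (SE 0.11, 1.34-fold, adjusted p = 0.0327). Zp2 was at -0.47 (SE 0.13, adjusted p = 0.0425) with ranges that overlapped. Zp3 (0.44, SE 0.22) and Figla (0.46, SE 0.42) leaned the other way, and Zp1, Gdf9, Oosp1 and Astl lay between -0.18 and -0.08. No gene of the regulator, signalling, cumulus target or egg surface lists was called.

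Spi-C mRNA was compared with no injection in clones, across slides and scanners that cannot be told apart from the injection. At both concentrations the same 3 of the 8 genes were called, Zp1 higher and Gdf9 and Oosp1 lower. In Spi-C 1.0, 6.3% of all probes were called higher and 3.88% lower than in TSA(-), and in Spi-C 0.1 5.65% and 4.12%, with medians of 0.15 and 0.14 over all probes. Of the probes called, 38.1% and 42.2% were lower, against 49.9% and 48.8% under quantile normalization, 65.5% and 60.9% after centring on medians and 76.0% and 78.7% after normexp. Zp1 was at -1.31, -0.91, -0.95 and -1.20 in Spi-C 1.0 and at -0.93, -1.15, -1.18 and -1.24 in Spi-C 0.1, all above the TSA(-) range of -2.10 to -1.48. Its differences were 0.80 (SE 0.19, adjusted p = 0.00225) and 0.77 (SE 0.19, adjusted p = 0.00349). Both were lost when arrays were centred on their medians (0.57 and 0.61). Against IVF, Zp1 was at 0.27 and 0.23 with overlapping ranges and was not called.

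Gdf9 was at 6.15, 6.30, 6.27 and 6.26 in Spi-C 1.0 and at 6.37, 6.17, 6.28 and 6.29 in Spi-C 0.1, all below the TSA(-) range whose lowest array was at 6.67. Oosp1 was at 7.43, 7.56, 7.20 and 7.36 and at 7.53, 7.16, 7.29 and 7.38, below the TSA(-) range of 7.80 to 8.06. The differences from TSA(-) were -0.62 and -0.58 for Gdf9 (adjusted p = 0.00242 and 0.00411) and -0.57 and -0.61 for Oosp1 (adjusted p = 0.00229 and 0.00101). Raw intensities leaned the other way, at 169122 to 204628 for Gdf9 in the Spi-C groups and 125872 to 193257 in TSA(-), and under quantile normalization Gdf9 was at -0.33 and -0.23 and Oosp1 at -0.06 and -0.03, none of them called. Zp3 was at 0.67 and 0.66 with ranges apart from TSA(-) but was not called (adjusted p = 0.0582 and 0.063). Bmp15 (-0.27 and -0.40) likewise had ranges apart and was not called. The share of all probes with ranges apart from TSA(-) was not computed.

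Single Spi-C arrays decided several of these calls. Zp1 was not called without Spi-C 1.0 replicate 2 (0.74) or 3 (0.75), nor without Spi-C 0.1 replicate 1 (0.70) or 2 (0.78). Gdf9 was not called without Spi-C 1.0 replicate 1 (-0.58) or without Spi-C 0.1 replicate 2 (-0.55), 3 (-0.58) or 4 (-0.59), and Oosp1 not without Spi-C 1.0 replicate 3 (-0.50) or 4 (-0.56). The sizes moved little in each case.

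Against IVF, 4 of the 8 genes were called lower and none higher at each concentration, where 11.1% of all probes were lower and 13% higher with Spi-C 1.0, and 11.4% and 12.3% with Spi-C 0.1. Of the probes called, 45.9% and 48.1% were lower, against 60.7% and 58.1% after centring on medians and 76.7% and 77.9% after normexp. Zp2 was at 2.09, 2.12, 2.06 and 1.91 and at 2.02, 1.61, 1.77 and 1.84, below every IVF array, with differences of -0.61 (adjusted p = 0.00193) and -0.84 (adjusted p = 4.19e-05). Gdf9 (-0.90 and -0.87) and Oosp1 (-0.79 and -0.83) were lower with ranges apart. Figla was lower, at -1.97 (SE 0.51, adjusted p = 0.00247) and -2.03 (SE 0.51, adjusted p = 0.00193), although 1 Spi-C 1.0 array, at -3.22 against -6.03 to -5.23 on the other 3, lay within the IVF range. The Figla call for Spi-C 1.0 was lost without replicate 1 (-1.61), 3 (-1.87) or 4 (-1.87), and the Zp2 call without replicate 4 (-0.56). Astl was not called (0.84, adjusted p = 0.0213, and 0.23), except at Spi-C 1.0 without IVF replicate 5 (0.97). Under quantile normalization Oosp1 was called at neither concentration (-0.15 and -0.11), Zp2 not at Spi-C 1.0 (-0.56) and Gdf9 not at Spi-C 0.1 (-0.31), and Bmp15, uncalled at -0.23 in Spi-C 1.0, was called higher at 0.33.

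The 2 concentrations shared both slides and could be set against each other without that limit. None of the 8 genes was called by limma, which called 0.00506% of all probes. Its p before adjustment was above 0.05 for each of the 8 and under it for 3.26% of all probes, and the post hoc test called none of the 8 and 0.139% of all probes. Astl came nearest, at -2.75, -2.67, -2.64 and -3.06 with 1.0 mg/ml and -3.41, -3.02, -3.27 and -3.86 with 0.1 mg/ml, a difference of 0.61 (SE 0.31) that had the same sign on both slides. The other 7 differences lay between -0.03 and 0.23.

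Of 8 measured egg surface genes, 1 was called higher in each Spi-C group than in TSA(-), Izumo1r (1.93 and 1.86), and none lower. Of 14 signalling genes, 2 were called lower, Bmpr1a (-1.18 and -1.36) and Smad2 (-0.94 and -0.97), and none higher. Of 8 measured regulators, 1 was called lower, Gata4 (-1.63 and -1.20), and Tcf12 was called higher in Spi-C 0.1 only (0.61). Of the 12 cumulus targets, Kitl was called higher (1.31 and 1.36) and Pfkp lower (-1.42 and -1.12). Over all probes, 6.3% were called higher and 3.88% lower in Spi-C 1.0, and 5.65% and 4.12% in Spi-C 0.1. The scanner and slides differed here too.

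**Figure D4:**
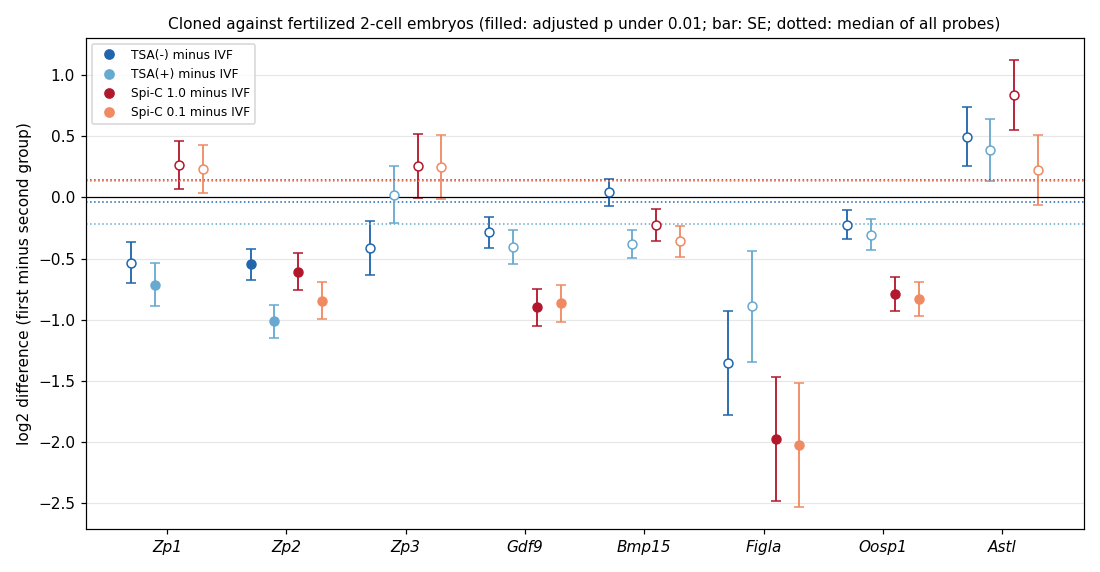
Log2 difference of each gene between each of the 4 clone groups and IVF (points filled where the adjusted p was under 0.01, bars for the SE, dotted lines for the median of all probes). Zp2 lies below 0 and is called in all 4 groups, from -0.55 to -1.01, and Gdf9, Oosp1 and Figla are called in the Spi-C groups, where quantile normalization removed the call of Oosp1 in both, of Gdf9 in Spi-C 0.1 and of Zp2 in Spi-C 1.0.

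Cumulus cells surround the oocyte, receive its secreted factors and were the source of the clones' nuclei. All 8 genes were called higher in OC than in Cumulus, where 44.5% of all probes were higher and 23.8% lower, and all 8 were higher in TSA(-) than in Cumulus, where 31.1% of all probes were. Of all probes called in the first comparison 34.9% were lower in OC, against 46.1% under quantile normalization and 21.7% after normexp, and in the second 44.6% were lower in TSA(-), against 64.5% after centring on medians and 64.7% after normexp. On Cumulus arrays Bmp15, Figla, Oosp1 and Astl were never well above background, nor was the main probe of Zp2, although its second probe was on 1 of 4. For these probes only a bound could be given, taken against the lowest signal well above background on each Cumulus array, or the probe's own signal where that was higher. The bounds hold only for levels scaled to each array's 75th percentile. That percentile was at an intensity of 279 to 527 in OC and 814 to 1125 in Cumulus, so smaller folds hold for unscaled intensities. No bound was computed under another scaling. OC was at least 116822-fold higher for Oosp1, at least 59276-fold for Bmp15, at least 875-fold for the main probe of Zp2, at least 333-fold for Astl and at least 27.4-fold for Figla. TSA(-) was at least 22182-fold higher for Oosp1, 15584-fold for Bmp15, 386-fold for the main probe of Zp2, 10.3-fold for Astl and 4.51-fold for Figla. The Zp2 bounds do not cover its second probe. That probe had a mean of 2.36 in OC and 1.25 in TSA(-), and ran from -8.91 to -4.11 in Cumulus.

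The remaining 3 genes were measured on some or all Cumulus arrays. Gdf9 was well above background on 4 of 4, at levels of 0.01, 0.53, 0.90 and -0.11 and intensities of 869 to 1627, and OC was 728-fold higher (difference 9.51, SE 0.15). Zp1 was at -6.25, -6.47, -5.86 and -5.91, well above background on 3 of 4 arrays, and OC was 64.8-fold higher. Zp3 was at -5.03, -5.69, -6.93 and -7.56, well above background on 2 of 4, and the difference from OC was 10.73 on this probe and 11.72 on the second, which was also measured on 2 of 4 arrays only. Gdf9 was thus the one gene of the 8 with a level near the 75th percentile of the Cumulus arrays. Among the 7 other oocyte markers, Oog1 (0.41 to 1.35) and H1f8 (-4.85 to -2.46) were well above background on 4 of 4 of these arrays, Ooep and Padi6 on 2 of 4, and Mos, Nlrp5 and Zar1 on none. The part of carried-over oocyte RNA or of the overlap with Uqcrq in that level was not tested.

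Genes that respond to these ligands in cumulus cells were measured in the same arrays. Of 12 cumulus targets of oocyte factors, 9 were lower and 2 higher in OC than in Cumulus, with a median difference of -5.48 against 1.14 for all probes. Of the 8 regulators, 6 were higher in OC and none lower, with a median of 4.07. Over all probes these shares were 44.5% higher and 23.8% lower. Between IVF and OC the cumulus targets were split, with 6 higher and 4 lower of 12, against 23.8% and 43.2% of all probes, among them Has2 (-4.35), the hyaluronan synthase of cumulus expansion, and Kitl (-4.14) lower and Ldha (6.17, well above background on 6 of 7 OC arrays) higher.

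The 8 genes followed each other across samples to different degrees. Over the 35 arrays of oocytes and embryos, the Pearson correlation of levels between pairs of the 8 genes ran from 0.53, for Zp1 and Figla, to 0.99, for Gdf9 and Oosp1, as a description of arrays that share groups and scaling. The genes whose levels followed the mean of the 8 most closely, out of 10484 genes well above background on every OC array and compared over 39 arrays, were Obox1, Pramel32, Fbxw16, Mbl2 and Nlrp9a, at r of 0.996 to 0.998. Without the Cumulus arrays their r was 0.979 to 0.986. Obox1 went from 8.03 in OC to 5.07 in IVF, 4.07 in TSA(-) and 3.72 in Spi-C 0.1.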

How the data were processed

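Agilent Whole Mouse Genome arrays with Cy3-labelled, linearly amplified RNA were read by the authors with Agilent Feature Extraction (9.5.3.1 and 10.5.1.1 per the file headers), and the deposited scanner files hold for each spot an intensity already background-corrected by that software. The authors' own table of log2 values, used as an alternative, correlated at 0.9997 or above with the levels used here on each array (column medians from -0.30 to 1.08), which left its scale and direction clear. Here the deposited intensity was set to log2 minus the 75th percentile of its array, leaving out control spots and 1820 values marked as outliers. Probes were named by accession through RefSeq (27829 of 41174 named). The main probe of a gene was the one with the highest mean level.

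Probes with an intensity of at least 10 on at least 1 IVF or clone array were tested with limma 3.58.1 (R 4.3.3, statmod 1.5.0), all 7 groups in 1 fit, after tests on simulated data. Calls were made at a Benjamini-Hochberg adjusted p under 0.01. From each pathway list at most 3 called genes per direction were named, those with the largest differences. Figures were drawn with Python 3.11.15 and matplotlib 3.10.9. The number of arrays limits the precision. The 8 genes and all lists were chosen with earlier results of these data known.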

Additional observations from a re-analysis of the deposited data

Results flagged for a closer look

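Among 56 groups of 4 to 8 arrays, 1 per gene and group, 4 held an array set apart from the rest of its group by Dixon's test, and chance gives about 1 in 20. Zp1 on TSA(+) replicate 1 was at -1.51, above the other 5 arrays (-2.32 to -2.10). Bmp15 on OC replicate 6 was at 8.83, below the other 6 (9.33 to 9.53), and without it the difference IVF minus OC was -2.06. Astl on OC replicate 2 was at 0.19, below the other 6 (1.94 to 2.57). Astl on IVF replicate 5 was at -2.97, above the other 5 IVF arrays, and without it Astl differed by -5.64 between IVF and OC. All 4 spots were well above background.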

How the results depend on the processing

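For the 56 called differences, 1547 values under alternatives were computed, of which 1500 kept direction and call, 43 lost the call and 4 changed sign. These 4 came from quantile normalization, namely Zp2 at 0.44 and Bmp15 at 0.21 (IVF minus OC), and Bmp15 at 0.42 (TSA(-) minus OC) and 0.09 (TSA(+) minus OC). Of 1301 values for uncalled differences, 35 changed sign and 1 of these was called, Bmp15 at 0.33 for Spi-C 1.0 minus IVF, also under quantile normalization. That setting called 3 genes for TSA(-) minus IVF, 1 for each Spi-C group minus TSA(-) and 2 for Spi-C 0.1 minus IVF. The cause was not tested.

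Arrays on shared slides alone, which are fewer, called 2 genes for IVF minus OC, 0 for TSA(-) minus IVF (5 had an unadjusted p under 0.05 with all arrays) and 1 for TSA(+) minus IVF. For TSA(-) minus IVF, a threshold of 0.05 called 3, normexp 4, the strict filter 2 and the compared groups alone 2, and leaving out 1 replicate gave 1 to 2. A threshold of 0.05 called 4 genes for TSA(+) minus IVF and 2 for TSA(+) minus TSA(-), centring on medians 1 for TSA(+) minus IVF, and normexp 1 and Tukey's HSD 2 for TSA(+) minus TSA(-). Tukey's HSD called 5 genes for each Spi-C group minus TSA(-), and the study's sets of groups 5 for Spi-C 0.1 minus TSA(-). Leaving out 1 replicate gave 1 to 3 genes for each Spi-C group minus TSA(-), with 1 gene without Spi-C 1.0 replicate 3 or Spi-C 0.1 replicate 2, and 2 to 5 for Spi-C 1.0 minus IVF, with 2 without Spi-C 1.0 replicate 4.

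The replicate numbers did not pair the arrays: same-numbered arrays correlated at -0.094 to 0.152 in their deviations from group means. With the replicate number as a block, limma called 0 genes for TSA(-) minus IVF, 8 for IVF minus OC, and 2 for Spi-C 0.1 minus TSA(-). Over all probes, TSA(+) minus TSA(-) called 114 probes, but 206 under quantile normalization, 214 after centring on medians, 498 after normexp and 781 by Tukey's HSD. After normexp the Spi-C groups minus TSA(-) called 10653 and 11879 probes, against 4026 and 3858. Signal over background limits Cumulus, where 4 of the 8 genes, and the main probe of Zp2, have only a bound.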
